A study of Mus musculus with 24 samples.

Results

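The 44 genes described here serve DNA replication and S phase, the part of the cell cycle in which the genome is copied. They were taken from a list of named genes, and 42 of them had a probe set on the array, out of 12393 genes that the array names. Gins2 and Chaf1a had none. Each gene is read by 1 probe set, the brightest on average across all 24 arrays, chosen among 75 probe sets of these genes, and 19 genes had only 1 to choose from.

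The study used bone marrow progenitors of C57BL/6 mice. Its design asks which genes change early after a leukemia fusion oncogene enters granulocyte monocyte progenitors (GMP), and how those changes relate to stem cells and to established leukemia. In 4 groups, GMP had been given a vector by spinoculation, and the GFP-positive cells were harvested 36 hours later. The vector carried GFP alone (GFP, 3 arrays), MOZ-TIF2 (MT2, 4 arrays), NUP98-HOXA9 (NHA9, 3 arrays) or AML1-ETO (AE, 4 arrays). All of these cells, the GFP group included, had therefore been infected and kept for 36 hours. Another 3 groups were sorted without that step: normal GMP (4 arrays), LSK cells, a bone marrow fraction titled hematopoietic stem cells (3 arrays), and leukemic cells with the surface phenotype of GMP from a MOZ-TIF2 leukemia model (L-GMP, 3 arrays), whose transduction is given as not applicable. The labels do not name the promoter of the vector, the culture conditions or the share of cells infected, and they do not say whether replicates came from separate mice, cultures, infections or leukemias, so p-values cover only the variation from array to array, part of which may be technical.

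Before a cell copies its DNA, the origin recognition complex, Cdc6 and Cdt1 load the ring of MCM proteins onto DNA in G1. Kinases then turn this ring into the active helicase with Cdc45 and the GINS complex, primase and the DNA polymerases follow behind it, and the clamp PCNA, placed by replication factor C, holds the polymerases on the template. Many of these genes are targets of E2F factors and their messenger RNA rises as cells pass from G1 into S phase, while granulocyte monocyte progenitors are among the actively dividing cells of the marrow.

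Promoter stretches are shown because members of this list are often described as E2F targets and because many of them moved together here. RefSeq windows of mouse build GRCm38.p6, from 250 bases before to 50 bases after the start of transcription, were found for 36 of the 42 genes. Mcm4, Gins1, Prim2, Pole, Rfc2 and Ccne2 had none. E2F letters (TTTCCCGC, TTTGGCGC, TTTCGCGC or TTTGCCGC, on either strand) were present in 12 of these 36 genes, which is 33.3%, against 2.6% of all 27025 genes with a window and 4.07% of the 9888 such genes that the array names. CCAAT letters were present in 20 of the 36 genes, or 55.6%, against 41.1% of all genes and 42.3% of those on the array, and the letters TTTGAA or TTCGAA, of the kind found in promoters of mitotic genes, in 6, or 16.7%, against 21.7% and 17.3%. A match is a description of the letters, not evidence of binding. The stretches below run over the 160 bases before the start site, along the strand of the gene. Capitals mark E2F letters and CCAAT letters, read on either strand. Mcm6, Mcm5, Pola1 and Cdc6 hold E2F letters there, and so do Orc1 and Rfc3, whose stretches are not shown. Orc1 was not tested, and Rfc3 differed by −0.12 between AE and GFP arrays without a call. Cdc45 and Dut, which were called lower on AE arrays, hold no E2F letters in the whole window.
Mcm6 (chr1:128359706-128359865, minus strand): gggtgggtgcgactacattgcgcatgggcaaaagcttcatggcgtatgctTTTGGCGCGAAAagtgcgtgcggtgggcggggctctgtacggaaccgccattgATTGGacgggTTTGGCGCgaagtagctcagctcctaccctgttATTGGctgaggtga
Mcm5 (chr8:75109349-75109508, plus strand): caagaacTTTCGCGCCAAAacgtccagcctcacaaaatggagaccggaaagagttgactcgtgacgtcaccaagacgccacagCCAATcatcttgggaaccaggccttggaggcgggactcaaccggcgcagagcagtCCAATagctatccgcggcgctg
Pola1 (chrX:93632156-93632315, minus strand): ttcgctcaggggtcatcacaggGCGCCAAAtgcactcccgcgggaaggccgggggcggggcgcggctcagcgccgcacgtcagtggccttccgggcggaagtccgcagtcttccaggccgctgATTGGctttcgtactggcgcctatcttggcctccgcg
Cdc6 (chr11:98907991-98908150, plus strand): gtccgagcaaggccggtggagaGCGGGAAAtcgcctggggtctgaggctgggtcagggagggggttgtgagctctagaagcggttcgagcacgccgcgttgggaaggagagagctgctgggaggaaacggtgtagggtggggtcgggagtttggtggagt
Cdc45 (chr16:18811973-18812132, minus strand): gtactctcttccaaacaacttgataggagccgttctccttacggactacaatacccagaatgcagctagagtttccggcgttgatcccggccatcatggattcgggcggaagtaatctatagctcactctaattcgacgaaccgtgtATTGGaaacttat
Dut (chr2:125247355-125247514, plus strand): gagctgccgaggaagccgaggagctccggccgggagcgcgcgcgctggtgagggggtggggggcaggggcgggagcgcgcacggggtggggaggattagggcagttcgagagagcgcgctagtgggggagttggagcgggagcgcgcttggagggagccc

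In Mcm6 the run TTTGGCGCGAAA holds 2 overlapping matches, TTTGGCGC from base −110 and TTTCGCGC on the other strand from base −106, and another match, TTTGGCGC, starts at base −47. Mcm5 has the same kind of overlapping pair, from bases −153 and −149. Pola1 and Cdc6 each have 1 match on the opposite strand, from base −138 in both. As a description with no test, the 11 tested genes with E2F letters had a median difference of −0.49 (log2) between AE and GFP arrays, with a range from −0.94 to −0.12, and the 23 tested genes with a window and no such letters had a median of −0.43, with a range from −1.20 to 0.31.

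Values are log2 expression estimates as the authors deposited them, and a difference of 1 on this scale is a 2-fold change of the estimate. Orc1, the largest subunit of the origin recognition complex, and Tyms, thymidylate synthase, lay under a linear value of 60 (5.91 on the log2 scale), the background level the study used, on all 24 arrays, so neither was tested in any comparison. The other 40 genes were tested in all 10 comparisons, and 36 lay over 60 on all 24 arrays. The 4 others, Cdc6, Brca1, Ccne1 and Ccne2, fell under it on some arrays. Each difference carries its standard error (SE) and a limma p-value adjusted over all probe sets tested, and a gene is called when that p is under 0.05.

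Each array had 46.1% to 48.3% of its probe sets over 60. Some arrays stood apart on these genes. GMP 2 had the lowest value of the 4 GMP arrays for 35 of the 42 genes, L-GMP 1 the lowest of the 3 L-GMP arrays for 37, and AE 4 the highest of the 4 AE arrays for 38. Without such counts over all genes, a trait of these genes cannot be told from a trait of the array. L-GMP 1 also had the largest 3' minus 5' log2 signal of all arrays, at 4.82 for Gapdh, a measure of RNA quality. File names of the arrays carry a text tag, here called A, B or none, whose meaning the labels do not give: all 3 GFP arrays carry A, and so do AE 1, MT2 1 to 3, NHA9 1 and 2, GMP 1 to 3, LSK 1 and 2 and L-GMP 1. AE 2, 3 and 4 carry B and no GFP or NHA9 array does. In AE against GFP and AE against NHA9 the tag and the oncogene are therefore largely confounded. Of the MT2 arrays only MT2 4 carries B, so in AE against MT2 they are partly confounded. On the third principal component of the arrays (14.2% of variance), AE 1 lay at −13.1, AE 2 to 4 at 24.8 to 26.2 and GFP at −17.1 to −12.4. As for the cell type, all 10 measured GMP markers were over 60 on at least 2 arrays of each of the 7 groups, which is what a marker over 60 means below. This held in LSK as well, so it does not tell GMP from LSK. The levels differed: GMP markers averaged 9.46 ± 0.38 (SD, n = 3) in LSK and 11.15 ± 0.08 (SD, n = 4) in GMP. LSK markers averaged 8.87 ± 0.15 (SD, n = 3) in LSK arrays against 5.82 to 6.64 in the other groups' means.

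The 42 genes stood highest in sorted normal cells, lower in the transduced groups, and lowest in AE. AE had the lowest of the 7 group means for 34 of the 42 genes. Normal GMP had the highest for 18, LSK for 13, L-GMP for 8 and GFP for 3. These orders were not counted over all genes of the array. The mean over the 42 genes was 9.38, 9.00, 9.43 and 9.50 on GMP arrays 1 to 4, and 9.27, 9.01 and 9.18 on the LSK arrays. It was 8.73, 8.89 and 8.88 on the GFP arrays, 8.85, 8.85, 8.67 and 8.80 on the MT2 arrays, and 8.79, 8.64 and 8.83 on the NHA9 arrays. On the AE arrays it was 8.05, 8.44, 8.18 and 8.78. All transduced arrays were therefore below all GMP and LSK arrays, and 3 of the 4 AE arrays were below every other array, while AE 4 overlapped the GFP, MT2 and NHA9 arrays. L-GMP spread most widely, at 8.61, 9.20 and 9.55. In bulk samples such as these, fewer cells in S phase and less messenger RNA per cell cannot be told apart.

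**Figure D1:**
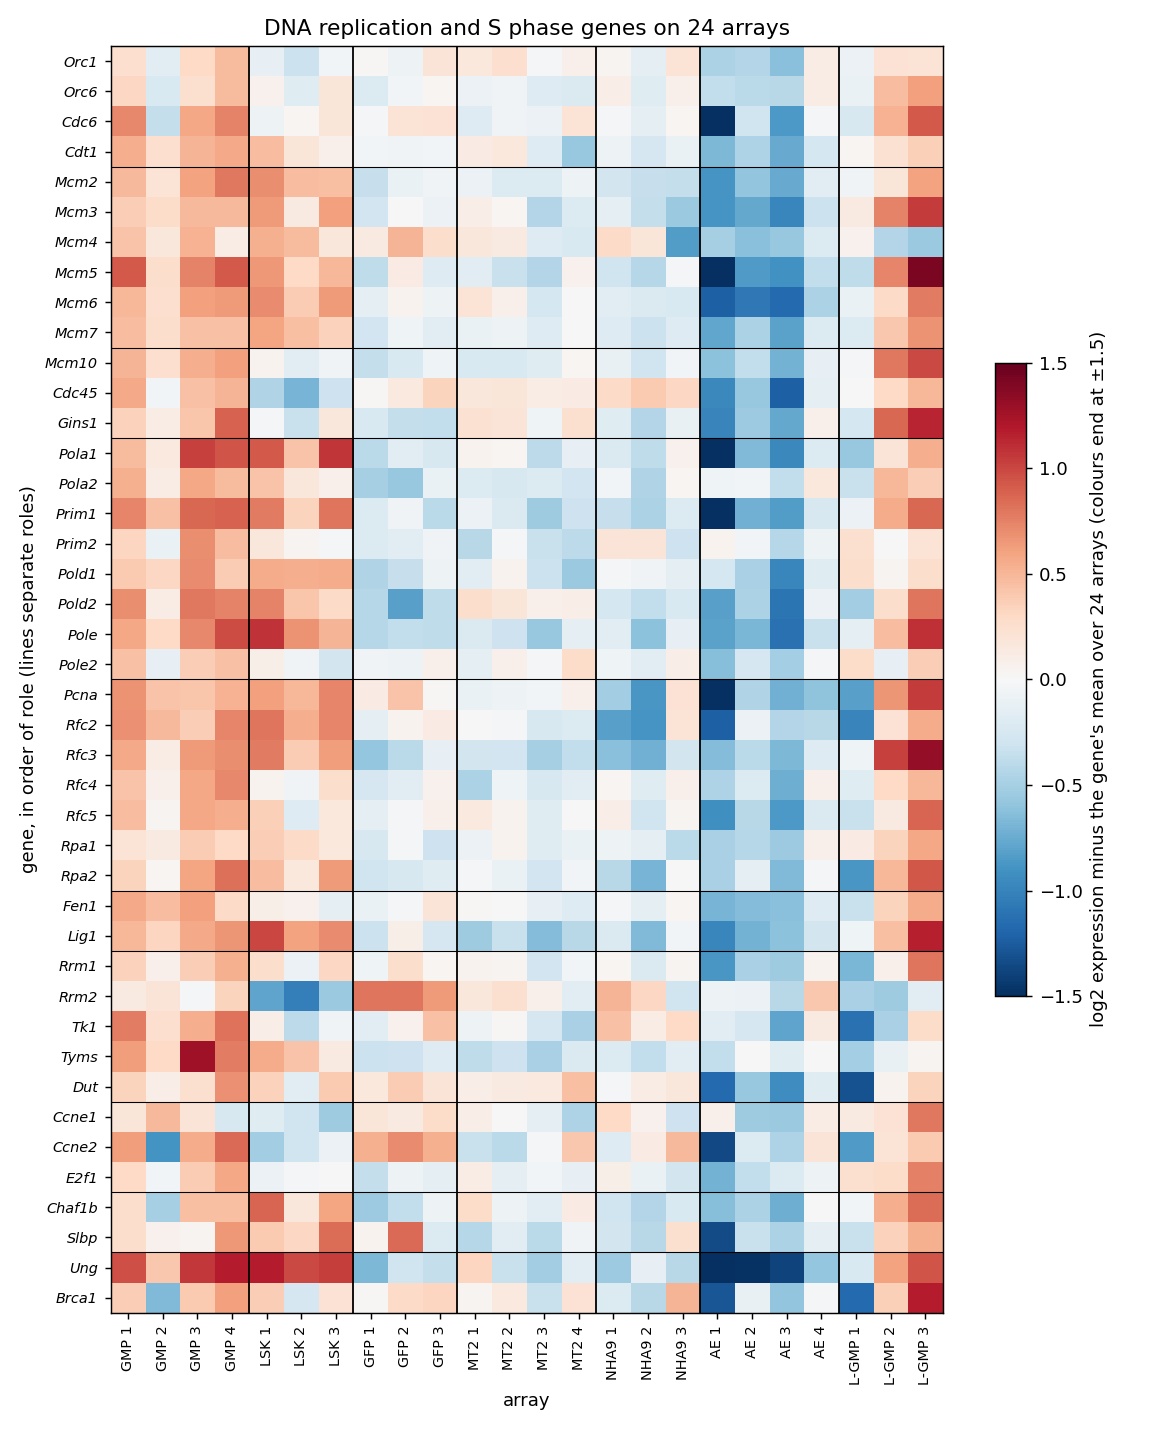
Each row is 1 of the 42 genes, ordered by role with lines between roles, and each column is 1 of the 24 arrays, with lines between groups. Colour gives the log2 expression minus the mean of that gene over all arrays. The GMP and LSK columns are mostly red, with GMP 2 paler than the other GMP arrays, AE 1, AE 2 and AE 3 mostly blue, and Rrm2 breaks the pattern with its highest values on the GFP arrays.

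A list of 28 genes of G2 and mitosis, 27 of them on the array, did not follow the same order. Its mean was 8.92 ± 0.06 (SD, n = 3) in GFP, 8.92 ± 0.20 (n = 3) in NHA9, 8.86 ± 0.26 (n = 4) in GMP, 8.71 ± 0.22 (n = 4) in MT2, 8.69 ± 0.18 (n = 4) in AE, 8.48 ± 0.55 (n = 3) in L-GMP and 8.47 ± 0.22 (n = 3) in LSK. LSK arrays, near the top for replication genes, were thus among the lowest for mitotic genes, and GFP arrays, below all GMP arrays for replication genes, lay within the GMP range for mitotic genes. The difference between the lists was not tested.

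**Figure D2:**
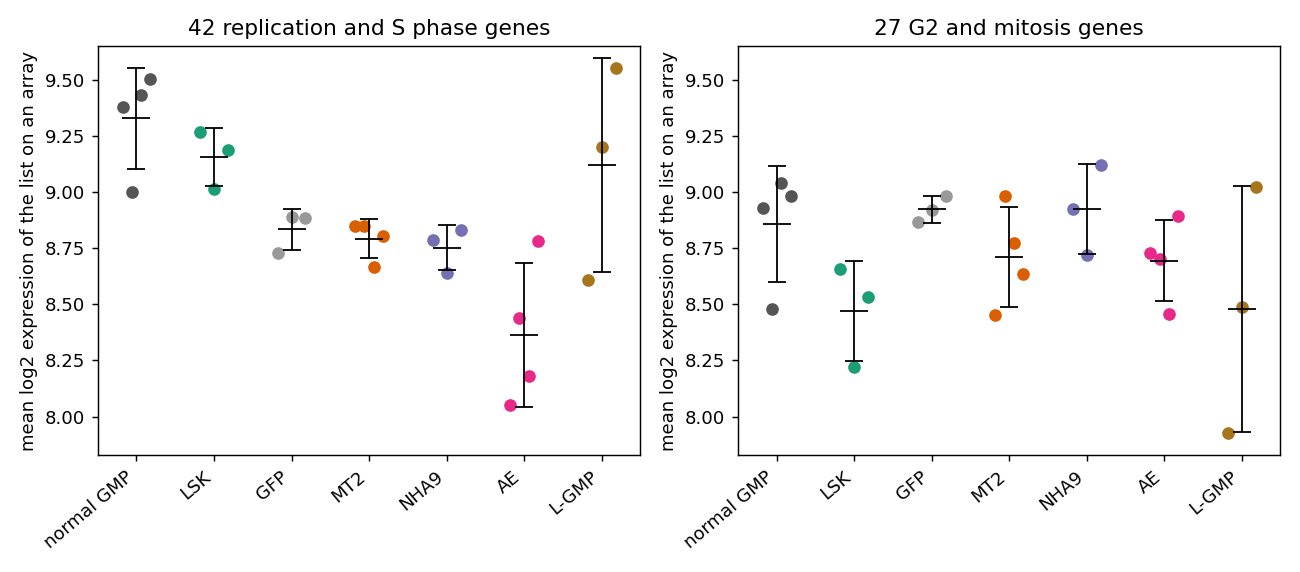
Points are arrays, by group, and the vertical axis is the mean log2 expression of a list on that array. Bars give the group mean and SD. On the left, for the 42 replication and S phase genes, all 14 transduced arrays lie under the lowest GMP array at 9.00. On the right, for 27 G2 and mitosis genes, GFP arrays lie within the range of the GMP arrays.

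The comparison of GFP with normal GMP shows the state of the cells that serve as the baseline for the oncogenes, 36 hours after infection with the empty vector. Of 40 genes tested, 19 were lower and 1, Rrm2, was higher in GFP, while 7.83% of all genes tested were lower and 8.77% were higher. The median difference was −0.51, against −0.05 over all genes tested, and 36 of the 40 differences were negative, against 3902 of 7103 over all genes. Groups did not overlap for 24 genes, of which 23 were lower and 1 higher, against 15.4% lower and 15.1% higher of all genes tested. The G2 and mitosis list had a median of 0.02, with 1 of 27 genes, Kif23, called lower.

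In licensing, Cdt1, which brings the MCM ring to the origin, was the only called gene of 3 tested. It read 11.00, 10.71, 10.96 and 11.02 on GMP arrays and 10.41, 10.40 and 10.41 on GFP arrays, a difference of −0.52 ± 0.14 (SE, limma adjusted p = 0.036). The GFP arrays were almost level with each other and all lay below the GMP arrays. Of the 6 MCM subunits, 5 were called lower, and Mcm4 differed by −0.0028 ± 0.17 (SE). The chosen probe set of Mcm4 is of a type that can read related transcripts, and the other one differed by −0.32 (limma adjusted p = 0.234). Mcm2, Mcm3 and Mcm7 also had another probe set called lower, while the other one of Mcm6, at −0.40 (limma adjusted p = 0.1115), was not called. Mcm5 read 9.55, 8.90, 9.38 and 9.56 on GMP arrays and 8.26, 8.76 and 8.45 on GFP arrays, a difference of −0.86 ± 0.20 (SE, limma adjusted p = 0.0218). For Mcm2 the values were 11.17, 10.90, 11.29 and 11.48 on GMP arrays and 10.34, 10.59 and 10.63 on GFP arrays, a difference of −0.69 ± 0.17 (SE, limma adjusted p = 0.0275). In both genes GMP 2 was the lowest GMP array and still lay above every GFP array.

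Among the factors that switch the helicase on, Gins1, a GINS subunit, and Mcm10, which helps to open the loaded ring, were called lower, and Cdc45 differed by −0.21 ± 0.18 (SE) without a call. Gins1 read 8.24, 8.00, 8.31 and 8.77 on GMP arrays and 7.66, 7.53 and 7.52 on GFP arrays, a difference of −0.76 ± 0.19 (SE, limma adjusted p = 0.0263). Mcm10 read 8.81, 8.54, 8.84 and 8.91 on GMP arrays and 7.94, 8.06 and 8.23 on GFP arrays, a difference of −0.70 ± 0.15 (SE, limma adjusted p = 0.0151). Neither gene had overlapping groups.

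The polymerases and primase were the role with most calls by number, though not by share: 6 of 8 genes were lower, beside 5 of the 6 MCM genes. Their median was −0.87, against −0.56 for the MCM genes. Pold2, the accessory subunit of polymerase delta, read 9.43, 8.84, 9.52 and 9.48 on GMP arrays and 8.30, 7.92 and 8.35 on GFP arrays, a difference of −1.13 ± 0.21 (SE, limma adjusted p = 0.00666). Pole, the catalytic subunit of the leading-strand polymerase epsilon, read 8.38, 8.10, 8.52 and 8.78 on GMP arrays and 7.37, 7.43 and 7.41 on GFP arrays, a difference of −1.04 ± 0.18 (SE, limma adjusted p = 0.00478). Both stayed called when any 1 array of the comparison was left out. The others called lower were Prim1, Pola1, Pola2 and Pold1, with differences from −0.95 to −0.74.

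Of 7 clamp, clamp loader and single-strand binding genes, 3 were called lower. Rfc3, a clamp loader subunit, read 8.70, 8.24, 8.78 and 8.83 on GMP arrays and 7.55, 7.73 and 8.01 on GFP arrays, a difference of −0.87 ± 0.19 (SE, limma adjusted p = 0.0151). Rpa2, of the complex that coats single-stranded DNA, read 9.23, 8.93, 9.49 and 9.72 on GMP arrays and 8.59, 8.66 and 8.72 on GFP arrays, a difference of −0.69 ± 0.20 (SE, limma adjusted p = 0.0442). Pcna, the clamp itself, was not called, at −0.32 ± 0.16 (SE), and 1 GFP array reached the level of the lowest GMP arrays. Lig1, the ligase that seals Okazaki fragments, read 9.85, 9.68, 9.93 and 10.02 on GMP arrays and 9.03, 9.44 and 9.11 on GFP arrays, a difference of −0.68 ± 0.16 (SE, limma adjusted p = 0.0216).

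In nucleotide supply 1 of 4 tested genes was called. Rrm2, the S phase subunit of ribonucleotide reductase, read 10.79, 10.85, 10.63 and 10.99 on GMP arrays and 11.46, 11.46 and 11.29 on GFP arrays, a difference of 0.59 ± 0.14 (SE, limma adjusted p = 0.0244). It was the only gene of the 40 called higher, and all GFP arrays lay above all GMP arrays. Its 2 other probe sets differed by 0.64 and 0.72 without a call. Its partner Rrm1 differed by −0.25 ± 0.16 (SE), Tk1, thymidine kinase, by −0.48 ± 0.20 and Dut, which removes dUTP, by −0.10 ± 0.17, and none of the 3 was called. None of the 3 G1 to S control genes was called, and neither were Chaf1b, Slbp and Brca1. Ung, which cuts uracil out of DNA, had the largest difference of the 40 genes. It read 9.50, 8.94, 9.59 and 9.70 on GMP arrays and 7.86, 8.23 and 8.18 on GFP arrays, a 2.54-fold lower estimate, a difference of −1.34 ± 0.21 (SE, limma adjusted p = 0.00296), and stayed called when any 1 array was left out.

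The median of these differences stayed negative and the number of calls varied. The median stayed between −0.60 and −0.45 when single arrays were left out, with 31 genes called without GMP 2, 16 without GMP 4, 8 without GFP 3, 6 without GMP 1 or without GFP 2, and 4 without GMP 3 or without GFP 1. Within tag A, 16 genes were called with a median of −0.48. Over all 11363 probe sets tested, 1782 were called with all arrays, 4026 without GMP 2, 1098 without GMP 3, 904 without GFP 1 and 1724 within tag A. The test of the design text, which lets the variances of the groups differ, called 5 genes, and 606 of all probe sets tested. The monocyte and macrophage list moved with this comparison: its 11 measured genes, 9 of them over 60 in GMP and 10 in GFP, summed to linear values of 4979 to 8160 on GMP arrays and 17878 to 18993 on GFP arrays. Erythroid and megakaryocyte markers moved the other way, from 1675 to 2771 on GMP arrays, with 8 of 10 over 60, to 687 to 973 on GFP arrays, with 4 of 10. Mast cell and basophil markers did too, from 1408 to 1980, with 4 of 9 over 60, to 417 to 544, with 3 of 9, and so did LSK markers, from 1901 to 3654, with 7 of 10 over 60, to 849 to 1074, with 6 of 10. The part of these cells in the result was not tested.

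**Figure D3:**
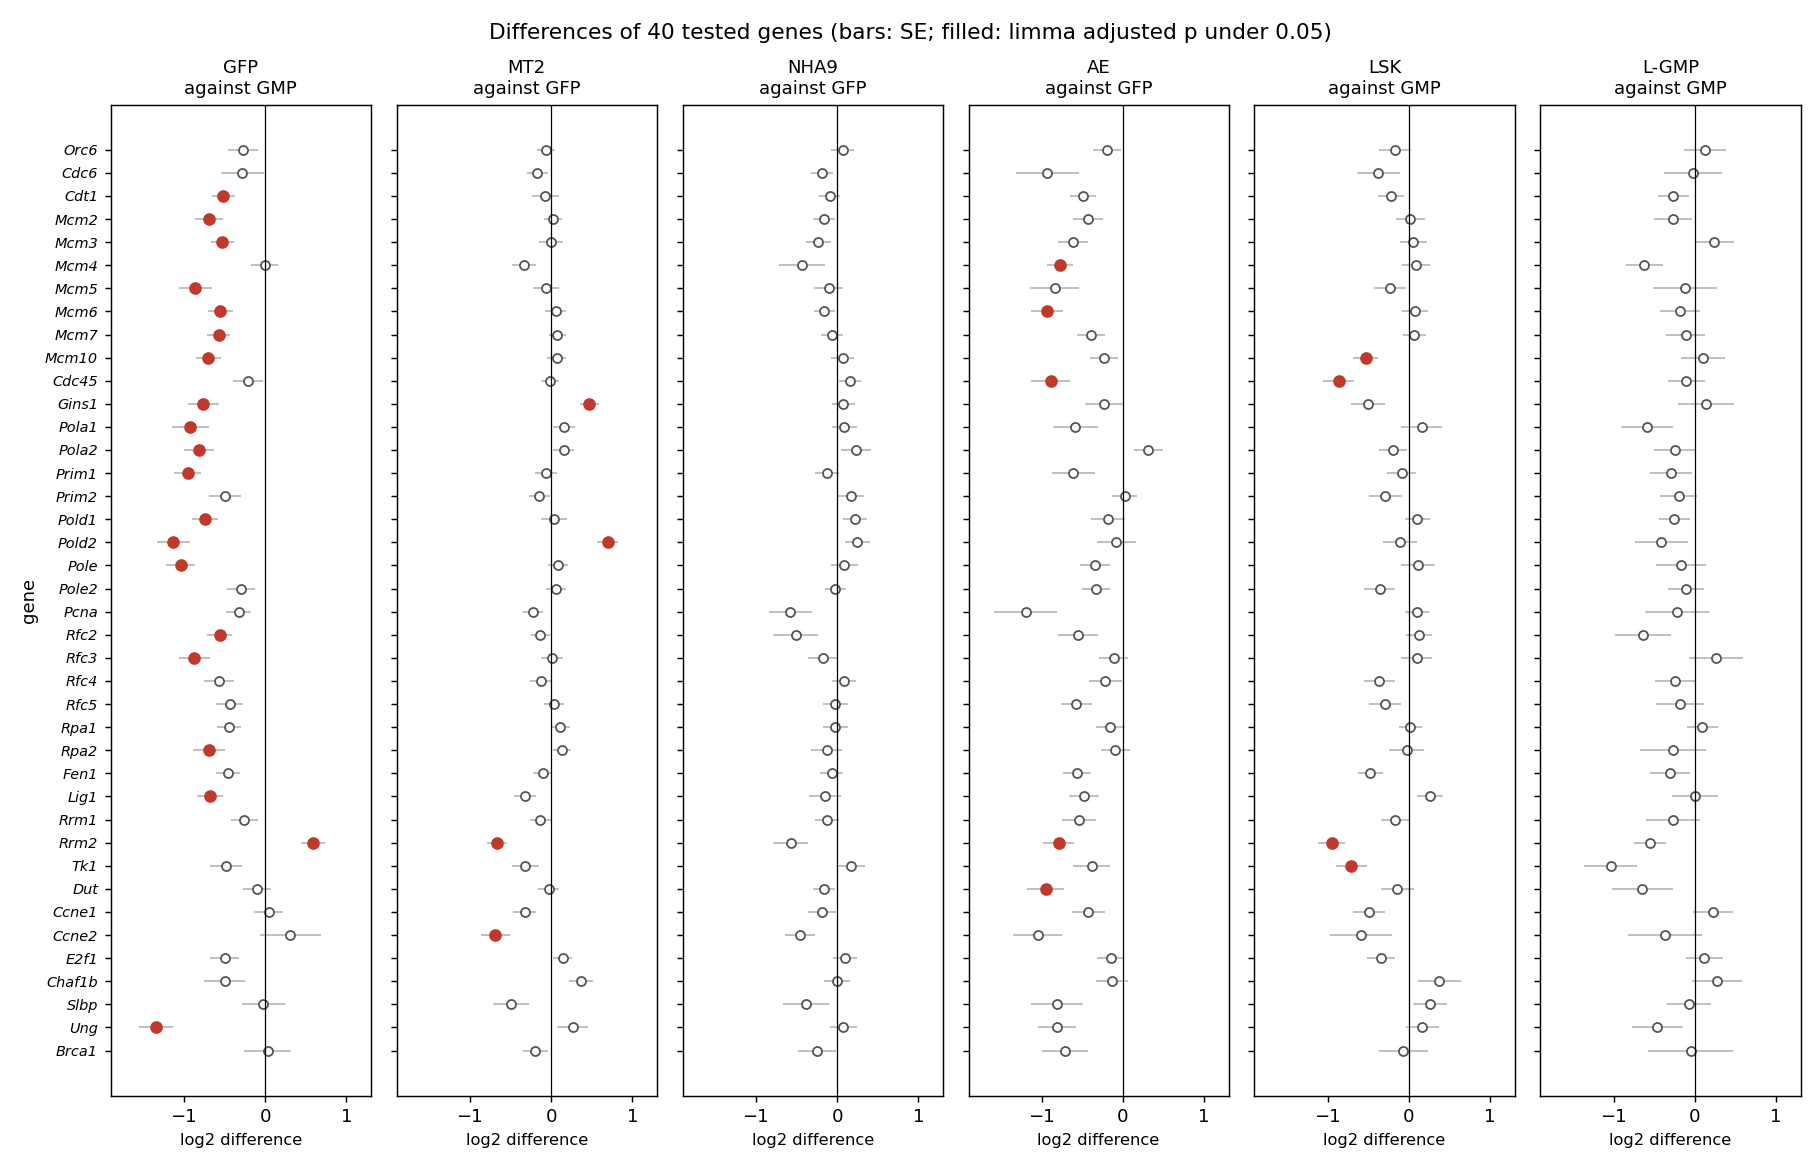
Each panel is 1 comparison, each row 1 of the 40 tested genes in the order of roles, and the horizontal axis is the log2 difference of the first group minus the second, with SE bars. Filled points have a limma adjusted p under 0.05. GFP against GMP shows 20 filled points, 19 of them left of 0, and AE against GFP shows 5, all left of 0.

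Among the oncogenes, AE arrays stood lowest on replication genes, while MT2 and NHA9 arrays stood near GFP. The 3 comparisons with GFP share the same 3 GFP arrays, which are also those of GFP against GMP, and are not independent of each other or of that comparison. In AE, 5 of the 40 genes were called lower and 0 higher, against 2.43% lower and 9.68% higher of all genes tested. The median difference was −0.49, against 0.10 over all genes tested. At an unadjusted p under 0.05 there were 22 genes, against 2174 of 7121 over all genes tested. Of the 40 differences 38 were negative, the others being Pola2 and Prim2, against 2810 of 7121 over all genes. Groups did not overlap for 14 genes, all lower in AE, against 6.95% lower and 21% higher of all genes tested.

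All 6 subunits of the MCM ring were lower at an unadjusted p under 0.05, and Mcm4 and Mcm6 were called. Mcm6 read 10.84, 11.02 and 10.90 on GFP arrays and 9.75, 9.90, 9.80 and 10.50 on AE arrays, a difference of −0.94 ± 0.19 (SE, limma adjusted p = 0.0159). Mcm4 read 10.22, 10.60 and 10.34 on GFP arrays and 9.58, 9.46, 9.52 and 9.88 on AE arrays, a difference of −0.78 ± 0.16 (SE, limma adjusted p = 0.0157). AE 4 was the highest AE array for both genes, and all AE arrays lay below all GFP arrays. The other 4 subunits differed by −0.39 (Mcm7) to −0.84 (Mcm5) without a call.

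Cdc45, the helicase cofactor that joins the ring when an origin fires, read 8.89, 9.02 and 9.21 on GFP arrays and 7.91, 8.31, 7.65 and 8.74 on AE arrays, a difference of −0.89 ± 0.24 (SE, limma adjusted p = 0.0445). Dut read 10.13, 10.35 and 10.17 on GFP arrays and 8.81, 9.41, 9.04 and 9.80 on AE arrays, a difference of −0.95 ± 0.22 (SE, limma adjusted p = 0.0269). Rrm2 read 11.46, 11.46 and 11.29 on GFP arrays and 10.58, 10.57, 10.24 and 11.06 on AE arrays, a difference of −0.79 ± 0.19 (SE, limma adjusted p = 0.0299). In these 3 genes the groups did not overlap, and AE 4 was the AE array nearest to GFP. No licensing, polymerase, primase, clamp, clamp loader, ligase, G1 to S control, chromatin or repair member was called by its chosen probe set. Another probe set of Prim1 was called, at −0.71 (limma adjusted p = 0.03006), and another of Mcm7, at −0.86 (0.04594), while the other probe sets of Mcm4, at −0.71 (0.06697), and Rrm2, at −0.68 (0.1404) and −0.88 (0.055), were not.

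Pcna had the largest difference of the 40 genes and was not called. It read 12.09, 12.39 and 11.98 on GFP arrays and 9.70, 11.51, 11.24 and 11.36 on AE arrays, a difference of −1.20 ± 0.38 (SE, limma adjusted p = 0.0726), with AE 1 far below the others. Ccne2, the S phase cyclin E2, lay −1.05 ± 0.30 (SE) from GFP and under 60 on 3 of the 4 AE arrays, so the size of its difference is imprecise. The licensing factor Cdc6 lay −0.93 ± 0.39 and Ung −0.81 ± 0.24, also without a call.

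**Figure D4:**
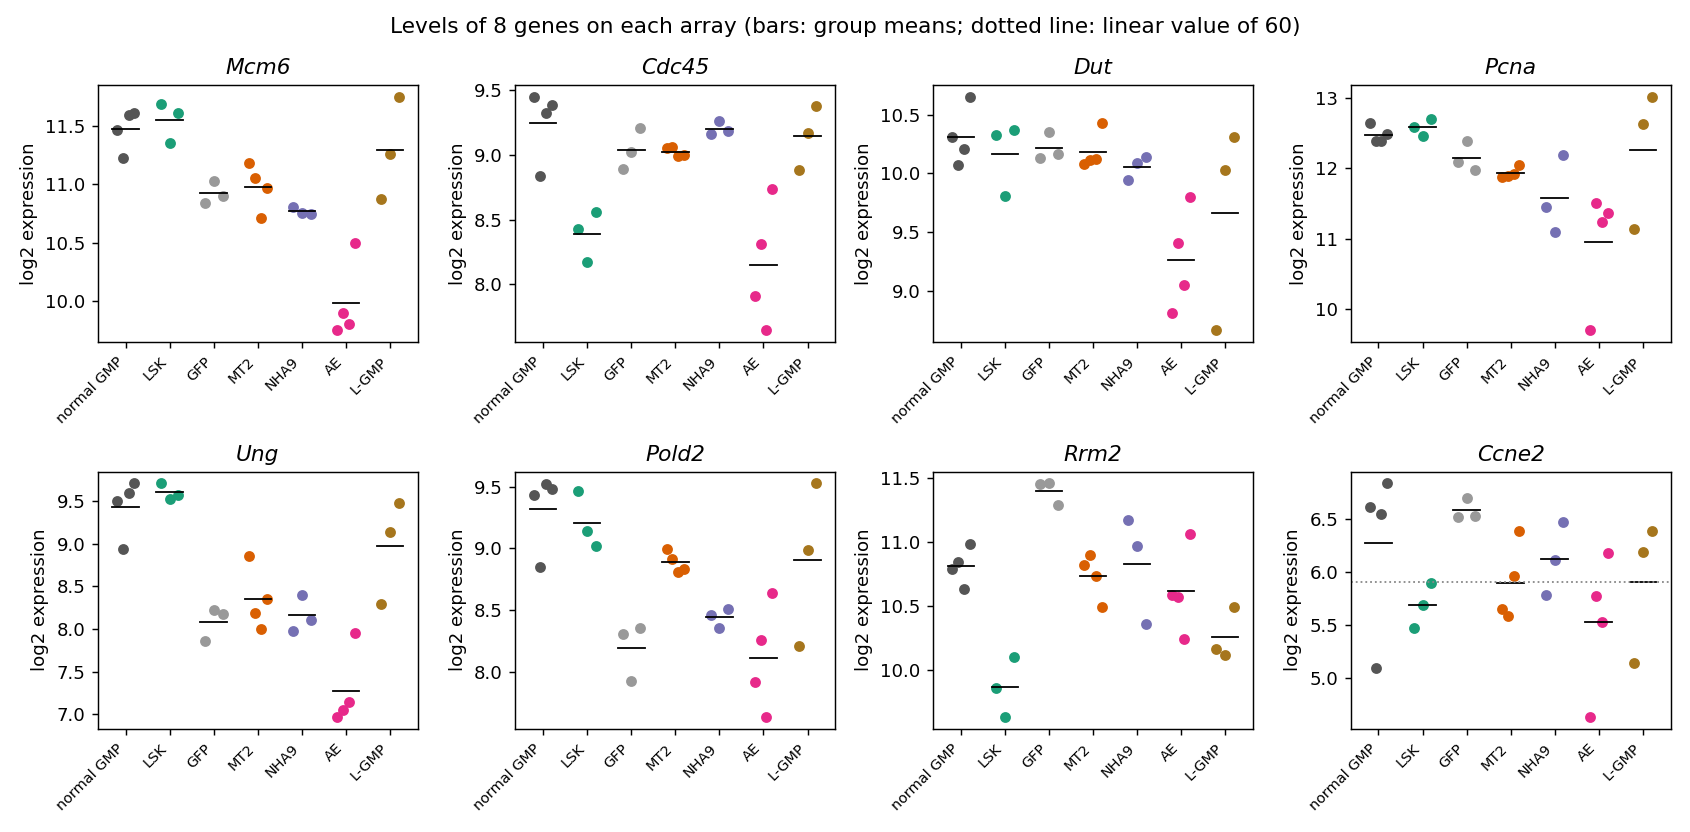
Points are arrays and short bars are group means of log2 expression, 1 panel per gene, with groups along the horizontal axis. The dotted line in the Ccne2 panel marks a linear value of 60. The AE group means are lowest for Mcm6, Cdc45, Dut, Pcna and Ung, GFP arrays are highest for Rrm2, and LSK arrays are low for Cdc45 and Rrm2.

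Calls in AE depended on single arrays, while the median stayed negative. Without AE 4 there were 12 calls and without AE 1 there were 9. There were 2 without AE 2 or without AE 3, 1 without GFP 1 or without GFP 3, and 0 without GFP 2, and the median ran from −0.59 to −0.37 over these. Over all 11393 probe sets tested, 1249 were called with all arrays, 918 without AE 4, 3045 without AE 1 and 329 without GFP 2. Within tag A, where AE 1 is the only AE array and its spread is taken to be that of GFP, 24 genes were called, with a median of −0.72; AE 1 is the lowest AE array on these genes, so this is a value of 1 array and not of the group. The test of the design text made 0 calls, among these genes and over all probe sets. GMP markers, 10 of 10 over 60, summed to linear values of 29236 to 39496 on AE arrays and 45976 to 50926 on GFP arrays, and monocyte and macrophage markers, 10 of 11 over 60 in both, to 19728 to 27631 and 17878 to 18993. Erythroid and megakaryocyte markers, 4 of 10 over 60 in both, summed to 2256 to 4980 on AE arrays and 687 to 973 on GFP arrays. Most of the AE sum came from 1 gene, Pf4, with group means of 11.57 in AE and 8.45 in GFP. Gata1, Klf1, Epor, Car1, Car2, Gp9 and Gp1bb had lower means in AE, and Hba-a1 and Itga2b slightly higher ones. LSK markers, 7 of 10 over 60 in AE and 6 in GFP, summed to 1111 to 1927 and 849 to 1074. The part of these markers in the result was not tested.

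In MT2 the calls ran in both directions: 2 genes were called higher and 2 lower of 40, against 8.8% higher and 3.22% lower of all genes tested, with a median of −0.02 against 0.06 over all genes. Pold2 read 9.00, 8.92, 8.81 and 8.83 on MT2 arrays against 8.30, 7.92 and 8.35 on GFP arrays, a difference of 0.70 ± 0.13 (SE, limma adjusted p = 0.0141). Gins1 read 8.13, 8.09, 7.83 and 8.13 on MT2 arrays against 7.66, 7.53 and 7.52, a difference of 0.47 ± 0.12 (SE, limma adjusted p = 0.0307). In both genes the MT2 arrays lay above all GFP arrays.

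The genes called lower in MT2 were Rrm2 and Ccne2. Rrm2 read 10.82, 10.90, 10.73 and 10.49 on MT2 arrays against 11.46, 11.46 and 11.29 on GFP arrays, a difference of −0.67 ± 0.13 (SE, limma adjusted p = 0.0141). Ccne2 read 5.65, 5.59, 5.97 and 6.39 on MT2 arrays against 6.52, 6.70 and 6.52, a difference of −0.68 ± 0.18 (SE, limma adjusted p = 0.0387), and 2 of the MT2 arrays were under 60. The MT2 mean of 5.898 was itself under that level (5.907 on the log2 scale), so the size of this difference is imprecise. Groups did not overlap for any of these 4 genes, nor for Lig1 and Ccne1, which makes 4 lower and 2 higher of 40, against 9.77% lower and 18.1% higher of all genes tested. The count of calls fell to 0 without GFP 2, to 2 without MT2 1, MT2 2, GFP 1 or GFP 3, and to 3 without MT2 3 or MT2 4. Within tag A it was 3, with a median of −0.01. Over all 11113 probe sets tested, 1316 were called with all arrays, 162 without GFP 2 and 879 within tag A. The test of the design text made 0 calls, among these genes and over all probe sets. Monocyte and macrophage markers summed to 12595 to 17280 on MT2 arrays, below the 17878 to 18993 of GFP, with 10 of 11 over 60 in both. Mature neutrophil markers summed to 7826 to 20408 on MT2 arrays, with 8 of 10 over 60, and 30639 to 35829 on GFP arrays, with 9 of 10, and the part of these markers was not tested.

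In NHA9, limma called 0 of 40 genes, against 0.173% higher and 0.0145% lower of all genes tested. At an unadjusted p under 0.05 there were 2, against 768 of 6919 over all genes tested. The test of the design text called 0, among these genes and over all probe sets. The median was −0.08, against 0.06 over all genes. Rrm2 read 11.17, 10.97 and 10.36 on NHA9 arrays, all under the GFP arrays, a difference of −0.57 ± 0.21 (SE, limma adjusted p = 0.408). Pcna read 11.45, 11.10 and 12.18, a difference of −0.58 ± 0.26 (SE, limma adjusted p = 0.495), with NHA9 3 within the range of GFP. There was no overlap of the groups for 4 genes lower and 1 higher in NHA9, against 3.73% lower and 15% higher of all genes tested. Without NHA9 3, which leaves tag A on both sides, 2 genes were called lower. Over all 10981 probe sets tested, 196 were called there, against 22 with all arrays.

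When all 11 oncogene arrays were set against GFP as the design text describes, limma called 0 of 40 genes and 0% of all genes tested in either direction. There were 4 at an unadjusted p under 0.05, against 826 of 7231 over all genes tested. The test of the design text called 1 of the 40 genes, and 116 of all probe sets tested. The median was −0.20, against 0.08 over all genes, with 33 of 40 negative against 2595 of 7231, and −0.14 within tag A with 0 called. Rrm2, at −0.69 ± 0.18 (SE), and Ccne2, at −0.76 ± 0.28, were the 2 genes for which no oncogene array reached the GFP arrays, both lower, against 0.346% lower and 1.88% higher of all genes tested. The Ccne2 means of MT2 and AE lay under 60, so the size of its difference is imprecise.

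Direct contrasts between the oncogenes, in a model of the 14 transduced arrays, placed AE below MT2. AE 2 to 4 carry tag B and of the MT2 arrays only MT2 4 does, so tag and oncogene are partly confounded. Of the 40 genes, 15 were lower in AE and 0 higher, against 11.8% lower and 17.5% higher of all genes tested, with a median of −0.42 against 0.03. Calls came in 8 roles: 5 MCM subunits, Cdc45 and Gins1, Pola1 and Pold2, Pcna and Rfc5, Fen1, Dut, Chaf1b and Ung. Groups did not overlap for 8 genes, all lower in AE, against 11.1% lower and 17.5% higher of all genes tested.

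Mcm6 read 11.18, 11.05, 10.71 and 10.96 on MT2 arrays, against the AE values given above, a difference of −0.99 ± 0.16 (SE, limma adjusted p = 0.000431). Mcm5 read 8.48, 8.30, 8.20 and 8.71 on MT2 arrays and 6.80, 7.79, 7.73 and 8.27 on AE arrays, a difference of −0.78 ± 0.24 (SE, limma adjusted p = 0.0265). Only AE 4 of the AE arrays reached the range of MT2 for Mcm5, and none did for Mcm6. Cdc45 read 9.05, 9.06, 8.99 and 9.00 on MT2 arrays, all above the AE arrays, a difference of −0.87 ± 0.18 (SE, limma adjusted p = 0.00274). Gins1 read 8.13, 8.09, 7.83 and 8.13 on MT2 arrays and 6.91, 7.34, 7.13 and 7.97 on AE arrays, a difference of −0.70 ± 0.18 (SE, limma adjusted p = 0.0107), with AE 4 inside the MT2 range.

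Of the polymerases, Pold2 read 7.92, 8.26, 7.63 and 8.64 on AE arrays, all below the MT2 arrays, a difference of −0.78 ± 0.18 (SE, limma adjusted p = 0.00522). Pola1, the catalytic subunit of the polymerase that starts each new strand, read 7.57, 7.54, 7.12 and 7.40 on MT2 arrays and 5.94, 6.85, 6.55 and 7.31 on AE arrays, a difference of −0.75 ± 0.22 (SE, limma adjusted p = 0.0221). Pcna read 11.87, 11.89, 11.92 and 12.04 on MT2 arrays, a difference of −0.98 ± 0.32 (SE, limma adjusted p = 0.0348). The MT2 arrays agreed closely for Pcna and all lay above the AE arrays, of which AE 1 was far the lowest. Rfc5, another clamp loader subunit, read 9.03, 8.92, 8.69 and 8.88 on MT2 arrays and 7.95, 8.46, 8.02 and 8.66 on AE arrays, a difference of −0.61 ± 0.16 (SE, limma adjusted p = 0.0107).

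Fen1, which trims the flaps of Okazaki fragments, read 11.16, 11.15, 11.02 and 10.96 on MT2 arrays and 10.45, 10.50, 10.52 and 10.96 on AE arrays, a difference of −0.46 ± 0.13 (SE, limma adjusted p = 0.0146). Dut read 10.08, 10.11, 10.12 and 10.43 on MT2 arrays, all above the AE arrays, a difference of −0.92 ± 0.18 (SE, limma adjusted p = 0.00161). Chaf1b, a subunit of the complex that places histones on new DNA, read 7.97, 7.63, 7.53 and 7.83 on MT2 arrays and 7.06, 7.22, 6.97 and 7.70 on AE arrays, a difference of −0.50 ± 0.17 (SE, limma adjusted p = 0.0345). Ung read 8.85, 8.19, 8.00 and 8.36 on MT2 arrays and 6.97, 7.05, 7.14 and 7.95 on AE arrays, a difference of −1.07 ± 0.22 (SE, limma adjusted p = 0.00241), a 2.11-fold lower estimate. AE 4 was the highest AE array in all of these.

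Leaving out AE 4 raised the count to 23, and leaving out any other of the 14 arrays gave 11 to 17. Over all 11632 probe sets tested, 3323 were called without AE 4, against 3227 with all arrays. Within tag A the AE side is AE 1 alone, the lowest AE array, with its spread taken from the other groups, so its 25 calls and median of −0.69 describe that array and not the group. The test of the design text called 0. Of the 12 genes with values given for this contrast, 8 stayed called without any 1 array: Mcm6, Cdc45, Gins1, Pold2, Rfc5, Fen1, Dut and Ung. GMP markers summed to 47391 to 51195 on MT2 arrays and 29236 to 39496 on AE arrays, and monocyte and macrophage markers to 12595 to 17280 and 19728 to 27631. Mature neutrophil markers, 8 of 10 over 60 in MT2 and 9 in AE, summed to 7826 to 20408 and 28795 to 33258. Erythroid and megakaryocyte markers summed to 449 to 2488 on MT2 arrays and 2256 to 4980 on AE arrays. Most of the AE sum came from 1 gene, Pf4, with group means of 8.40 in MT2 and 11.57 in AE. The part of these markers in the contrast was not tested.

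Against NHA9, 5 of the 40 genes were lower in AE and 0 higher, with 2.92% lower and 4.95% higher of all genes tested, and a median of −0.37 against 0.04. They were Mcm6 (−0.78 ± 0.17, SE, limma adjusted p = 0.012), Cdc45 (−1.05 ± 0.20, SE, limma adjusted p = 0.0045), Fen1 (−0.50 ± 0.14, SE, limma adjusted p = 0.0424), Dut (−0.79 ± 0.19, SE, limma adjusted p = 0.0206) and Ung (−0.89 ± 0.24, SE, limma adjusted p = 0.0364). Cdc45 had the largest difference: NHA9 arrays read 9.16, 9.26 and 9.18, close together and above every AE array. Mcm6 read 10.80, 10.75 and 10.74, Dut 9.94, 10.09 and 10.14 and Ung 7.98, 8.40 and 8.11 on NHA9 arrays. For Fen1 the NHA9 arrays read 11.13, 11.00 and 11.18, and NHA9 2 lay just above AE 4. The other probe set of Fen1 differed by −0.32 (limma adjusted p = 0.5304). Erythroid and megakaryocyte markers, 4 of 10 over 60 in both, summed to 2256 to 4980 on AE arrays and 1083 to 1559 on NHA9 arrays. Most of the AE sum came from 1 gene, Pf4, with group means of 11.57 in AE and 9.73 in NHA9. The part of these markers was not tested.

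In AE against NHA9 the groups did not overlap for 7 genes, all lower in AE, against 6.31% lower and 10.5% higher of all genes tested. The count of calls was 11 without AE 4 and 3 without AE 1, AE 2 or NHA9 3. It was 2 without AE 3 or NHA9 2 and 1 without NHA9 1, and Cdc45 was called in every case. Over all 11632 probe sets tested, 813 were called with all arrays, 820 without AE 4 and 389 without NHA9 1. The test of the design text called 0, among these genes and over all probe sets. There was 1 call with the tag as a factor and 2 with all 24 arrays in 1 fit. AE 2 to 4 carry tag B and no NHA9 array does, so tag and oncogene are largely confounded here too. Within tag A, where the AE side is AE 1 alone and its spread is taken from the other groups, the count was 16, with a median of −0.55. Between MT2 and NHA9 limma called 0 of 40 genes, against 3.1% higher and 4.51% lower of all genes. At an unadjusted p under 0.05 there were 2, against 1742 of 7231 over all genes tested. The test of the design text called 0 of the 40 genes, and 3 of all probe sets tested. The median was 0.05. For 2 genes lower and 4 higher in MT2 the groups did not overlap, against 13.1% lower and 10.9% higher of all genes tested. Within tag A, 4 genes were called there, 3 of them higher in MT2. Over all 11632 probe sets tested, 2091 were called within tag A, against 828 with all arrays.

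LSK and GMP, both sorted and not transduced, were close on most replication genes and differed in a few. Of 40 genes, 4 were lower in LSK and 0 higher, against 5.27% lower and 11.2% higher of all genes tested, with a median of −0.13 against 0.06. The 6 MCM genes had a median of 0.06 with 0 called, while all 3 helicase activation genes were lower at an unadjusted p under 0.05. That p was reached by 7 of the 40 genes, against 2177 of 7138 over all genes tested. Cdc45 read 8.43, 8.17 and 8.56 on LSK arrays and 9.45, 8.84, 9.32 and 9.38 on GMP arrays, a difference of −0.86 ± 0.19 (SE, limma adjusted p = 0.0166). Mcm10 read 8.35, 8.14 and 8.24 on LSK arrays, against the GMP values given above, a difference of −0.53 ± 0.15 (SE, limma adjusted p = 0.0451). Groups did not overlap for either gene, and GMP 2 was the GMP array nearest to LSK in both.

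Rrm2 read 9.86, 9.63 and 10.10 on LSK arrays, the lowest group mean of the 7, a difference of −0.95 ± 0.17 (SE, limma adjusted p = 0.00576). Tk1, the thymidine kinase that recycles thymidine for DNA synthesis, read 9.07, 8.58 and 8.91 on LSK arrays and 9.73, 9.23, 9.52 and 9.78 on GMP arrays, a difference of −0.71 ± 0.19 (SE, limma adjusted p = 0.0373). Groups did not overlap for either gene, nor for Fen1, which makes 5 of 40 genes, all lower in LSK, against 11.1% lower and 20.5% higher of all genes tested. Rrm2 stayed called when any 1 array was left out. The count was 11 without GMP 2, 4 without GMP 4, 2 without GMP 3 or LSK 3, and 1 without GMP 1, LSK 1 or LSK 2. Within tag A it was 1, with a median of −0.11. Over all 11452 probe sets tested, 1734 were called with all arrays, 2811 without GMP 2, 787 without LSK 1 and 1160 within tag A. The test of the design text called 0 of the 40 genes, and 268 of all probe sets tested. G2 and mitosis genes had a median of −0.43 here, with Aurka, Aurkb, Plk1 and Ube2c, all acting in mitosis, called lower of 27 tested. Of all genes tested, 5.27% were lower in LSK. GMP markers, all 10 over 60 in both, summed to 13378 to 21721 on LSK arrays and 48092 to 53644 on GMP arrays, and the part of cell type in the result was not tested.

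The L-GMP arrays spread widely on these genes. Of 40 genes, limma called 0 between L-GMP and GMP, while 3.62% of all genes were higher and 1.61% lower. At an unadjusted p under 0.05 there were 3, against 1316 of 7096 over all genes tested. The test of the design text called 0 of the 40 genes, and 15 of all probe sets tested. The median was −0.19, against 0.03 over all genes. The spread lay between L-GMP 1 and the other 2 arrays: Pcna read 11.15, 12.62 and 13.02, Dut 8.66, 10.03 and 10.31 and Mcm5 8.26, 9.37 and 10.05. In all 3 genes L-GMP 1 lay below the GMP arrays and L-GMP 3 reached or passed the GMP median. Without L-GMP 1 the median was 0.06 with 1 gene called, and without L-GMP 3 it was −0.40 with 1 gene called. Within tag A, where L-GMP 1 is the only leukemic array, it was −0.56 with 0 called. The mature neutrophil list, 10 genes on the array with 7 over 60 in L-GMP and 8 in GMP, spread over the same arrays. It summed to 52543 on L-GMP 1, 4827 on L-GMP 2 and 2481 on L-GMP 3, against 21337 to 34838 on GMP arrays, and its part in the result was not tested.

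A few genes did not follow this spread. Rrm2 read 10.16, 10.12 and 10.50 on L-GMP arrays, all below the GMP arrays, a difference of −0.56 ± 0.20 (SE, limma adjusted p = 0.17). Mcm4 read 10.14, 9.64 and 9.52, also all below GMP, a difference of −0.62 ± 0.22 (SE, limma adjusted p = 0.181), and here L-GMP 1 was the highest of the 3. Pold1 was the third gene with no overlap, at −0.25 ± 0.19 (SE), and 6.69% of all genes tested had no overlap and were lower, and 11.8% were higher. Tk1, which did follow the spread, had the largest difference of the 40, a difference of −1.04 ± 0.32 (SE, limma adjusted p = 0.116). Its values were 7.85, 8.48 and 9.25, and the lowest GMP array read 9.23. The chosen probe set of Mcm4 is of a type that can read related transcripts, and the other one differed by −0.16 (limma adjusted p = 0.8365).

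Of 59 further genes of the replication pathway, 48 were on the array. In GFP against GMP, 8 of 46 tested were lower and 2 higher, against 7.83% lower and 8.77% higher of all genes tested. The median was −0.33. The lower genes with the smallest adjusted p were Timeless, of the fork protection complex, at −1.02 ± 0.19 (limma adjusted p = 0.00714), Cdca7 at −1.17 ± 0.22 (limma adjusted p = 0.00797) and Ctps, a CTP synthase, at −0.81 ± 0.16 (limma adjusted p = 0.0108). The higher genes were Pold4, the smallest subunit of polymerase delta, at 1.08 ± 0.18 (limma adjusted p = 0.00485), and Dck, deoxycytidine kinase, at 0.88 ± 0.23 (limma adjusted p = 0.0292). Pold4 thus ran against Pold1 and Pold2 in the same comparison.

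In AE against GFP, 7 of 45 were lower and 1 higher, against 2.43% lower and 9.68% higher of all genes tested. The median was −0.35. Cdc7, the kinase that fires loaded origins, differed by −1.17 ± 0.25 (limma adjusted p = 0.0197), Tfdp1, the E2F partner DP1, by −0.74 ± 0.16 (limma adjusted p = 0.0212) and Topbp1, which helps Cdc45 to load, by −0.78 ± 0.17 (limma adjusted p = 0.0215). The higher gene was Pold4, at 0.86 ± 0.23 (limma adjusted p = 0.042). Of 26 G2 and mitosis genes, Top2a and Mki67 were called lower, with a median of −0.26. In AE against MT2, 16 of 45 were lower and 1 higher, against 11.8% lower and 17.5% higher of all genes tested. The lower genes were led by Asf1a, a histone chaperone, at −1.08 ± 0.15 (limma adjusted p = 0.000174), Tfdp1 at −0.90 ± 0.13 (limma adjusted p = 0.000204) and Usp1 at −0.82 ± 0.15 (limma adjusted p = 0.00132). Pold4 was the only gene higher, at 0.90 ± 0.18 (limma adjusted p = 0.0019). The G2 and mitosis list had a median of −0.0048 in that contrast, with Ccnb2 higher and Cks2 lower.

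In AE against NHA9, 3 of 45 of these pathway genes were lower, namely Cdc7, Asf1b and Tfdp1, and 0 higher. Of all genes tested, 2.92% were lower and 4.95% higher there. In MT2 against GFP, 3 of 45 were higher and 0 lower, against 8.8% higher and 3.22% lower of all genes tested. The 3 were Asf1a at 0.93 ± 0.16 (limma adjusted p = 0.0108), Cdca7 at 0.71 ± 0.18 (limma adjusted p = 0.0304) and Ctps at 0.64 ± 0.17 (limma adjusted p = 0.0346). In MT2 against NHA9, Asf1a alone was called, higher in MT2, against 3.1% higher and 4.51% lower of all genes tested. In LSK against GMP, Asf1b alone was called, lower in LSK, against 5.27% lower and 11.2% higher of all genes tested. In NHA9 against GFP, all oncogenes against GFP and L-GMP against GMP limma called 0, with 3, 6 and 3 at an unadjusted p under 0.05. Over all genes tested, that p was reached by 768 of 6919, 826 of 7231 and 1316 of 7096. For these other pathway genes neither the test of the design text nor the other alternatives were run.

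Over all 10 comparisons, which share arrays, 29 of the 40 tested genes were called at least once, against 47.5% of the 6547 genes tested in all 10. Other tested probe sets had the sign of the chosen ones in 22 of 22 cases in AE against GFP, GFP against GMP and AE against NHA9, 21 of 22 in AE against MT2, 20 in L-GMP against GMP and 19 over all oncogenes. The counts were 18 of 21 in NHA9 against GFP, and 16, 15 and 14 of 22 in MT2 against NHA9, LSK against GMP and MT2 against GFP. Mcm6, Cdc45 and Rrm2 were called most often, in 4 comparisons each. The 11 tested genes never called were Orc6, Cdc6, Prim2, Pole2, Rfc4, Rpa1, Rrm1, Ccne1, E2f1, Slbp and Brca1. They include E2f1, the transcription factor that gives the E2F letters their name, at group means from 7.13 to 7.90, and Rrm1, at 10.38 to 11.17, whose partner Rrm2 was among the most often called.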

How the data were processed

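Messenger RNA of 24 mouse samples in 7 groups was measured on 1 type of short-oligonucleotide array. The deposited table holds log2 expression estimates that the authors made with GCRMA 2.4.1 from MAS5 cell files, per the submitters' processing notes and the design text, which also states that outlier arrays had been removed. GCRMA normalizes arrays to each other, so a change shared by all genes is not seen. No further log or normalization was applied. Of 22690 probe sets, 64 controls were left out, and 20380 carried 1 gene symbol.

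Each comparison was fitted with limma 3.58.1 (lmFit, eBayes) in R 4.3.3. Probe sets entered where the linear value was over 60 on at least 2 arrays of a compared group, and p-values were adjusted by Benjamini-Hochberg over all of them, with a threshold of 0.05. Comparisons with GFP or GMP used only their own arrays, and contrasts between oncogenes used the 14 transduced arrays. The scripts were tested on simulated data. The members, lists and tests were chosen with earlier results of these data known. Values are printed for up to 2 called genes per role with the largest differences, and for the genes called in the most comparisons. Genes named beyond that were picked with their values in view, or belong to a short list or count. Chosen probe sets of Mcm2, Mcm3, Mcm7, Rfc4, Mcm4, Pold1, Fen1 and Rrm2 have suffixes of designs that can read related transcripts. The samples were not treated as paired by replicate number, as the labels do not say what a replicate is. The number of arrays limits the precision.

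Alternatives were quantile normalization, no level filter or a level of 120, tag A alone or the tag as a factor, all 24 arrays in 1 fit, the replicate number as a block, the mean of all probe sets of a gene, leaving out each array, and the test of the design text, which lets the variances of the classes differ. Present calls were not used here.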

Additional observations from a re-analysis of the deposited data

Results flagged for a closer look

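In groups of 4 arrays, 11 values of these genes lay far from the other 3 by Dixon's ratio, among 129 groups of 4 arrays examined (8.53%), where chance alone gives about 1 in 20. The 129 are the GMP, MT2 and AE groups for each of the 42 genes and for the mean of the 42. They share the same arrays and are not independent, so the 8.53% is not a test of an excess. On GMP 2 these were Cdc6 at 7.29, where the other GMP arrays read 8.22 to 8.39, Mcm7 at 12.80 (12.97 to 13.00), Pold2 at 8.84 (9.43 to 9.52), Pole2 at 8.84 (9.33 to 9.40) and Ccne2 at 5.09 (6.55 to 6.83), all low. On AE 4 they were Orc6 at 8.78 (8.26 to 8.30) and Fen1 at 10.96 (10.45 to 10.52), both high. On AE 1, Pcna read 9.70, against 11.24 to 11.51 on the other AE arrays. On MT2 4, Mcm10 read 8.33 (8.07 to 8.11) and Dut 10.43 (10.08 to 10.12), and on MT2 3, Gins1 read 7.83 (8.09 to 8.13).

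Between oncogenes, 20 log2 differences had an adjusted p of limma under 0.05, in 15 genes. Against MT2, the AE differences in the MCM ring were Mcm2 −0.45 (adjusted p = 0.0271), Mcm3 −0.61 (0.0125), Mcm5 −0.78 (0.0265), Mcm6 −0.99 (0.000431) and Mcm7 −0.47 (0.0165). Among the replisome and clamp genes the differences were Cdc45 −0.87 (0.00274), Gins1 −0.70 (0.0107), Pola1 −0.75 (0.0221), Pold2 −0.78 (0.00522), Pcna −0.98 (0.0348) and Rfc5 −0.61 (0.0107). The others were Fen1 −0.46 (0.0146), Dut −0.92 (0.00161), Chaf1b −0.50 (0.0345) and Ung −1.07 (0.00241). Against NHA9 they were Mcm6 −0.78 (0.012), Cdc45 −1.05 (0.0045), Fen1 −0.50 (0.0424), Dut −0.79 (0.0206) and Ung −0.89 (0.0364). All are tests of the difference itself, in 1 model of the transduced arrays, and every AE array carries its value into both contrasts.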

How the results depend on the processing

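The called members with array values in the report kept their sign under the alternatives fitted for them, which were not run for other genes. The counts of called members moved as follows, with the main count in brackets. In MT2 against GFP (4) there were 0 with the tag as a factor, by the test of the design text and with all 24 arrays in 1 fit, and 0 to 3 with 1 array left out. In NHA9 against GFP (0) there were 2 within tag A and 0 to 2 with 1 array left out. In AE against GFP (5) there were 11 after quantile normalization, 24 within tag A, where AE is 1 array in all its contrasts, 16 with the tag as a factor, 0 by the test of the design text and 0 to 12 with 1 array left out. In all oncogenes against GFP (0) there was 1 with the tag as a factor and 1 by the test of the design text, and 0 with any array left out. In GFP against GMP (20) there were 5 by the test of the design text and 4 to 31 with 1 array left out. In LSK against GMP (4) there were 8 after quantile normalization, 2 with no level filter, 1 within tag A, 7 with the tag as a factor, 0 by the test of the design text, 2 with all 24 arrays in 1 fit and 1 to 11 with 1 array left out. In L-GMP against GMP (0) there was 1 after quantile normalization, 5 with the tag as a factor, 2 with all 24 arrays in 1 fit and 0 to 1 with 1 array left out. In AE against MT2 (15) there were 25 within tag A, 0 by the test of the design text and 11 to 23 with 1 array left out. In AE against NHA9 (5) there were 8 after quantile normalization, 16 within tag A, 1 with the tag as a factor, 0 by the test of the design text, 2 with all 24 arrays in 1 fit and 1 to 11 with 1 array left out. In MT2 against NHA9 (0) there were 4 within tag A and 0 with any array left out. Calls over all probe sets moved between these settings as well. After quantile normalization they went from 1734 to 2813 in LSK against GMP and from 1249 to 1146 in AE against GFP. The causes were not tested.

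With the replicate number as a block, on arrays whose number occurs in both groups, GFP against GMP had 11 calls in place of 20. The other counts with the block were 3 in MT2 against GFP, 0 in NHA9 against GFP, 7 in AE against GFP, 0 over all oncogenes, 4 in LSK against GMP, 0 in L-GMP against GMP, 20 in AE against MT2, 7 in AE against NHA9 and 0 in MT2 against NHA9. Same-numbered arrays did not consistently deviate together: the correlations of their deviations ran from −0.43 to 0.50, and no comparison had all pairs above 0.1. With so few arrays a group, these correlations cannot exclude a pairing.

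With 3 or 4 arrays a group, and no sign in the labels of what a replicate is, the number of calls varied with the choice of arrays. Signals near the level of 60, those of Ccne1 and Ccne2, are less precise.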
